A study of Mus musculus with 2 samples.

Results

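The testis-specific serine kinases Tssk1, Tssk2, Tssk3, Tssk4, Tssk5 and Tssk6 and their substrate Tsks were followed in single testis cells of mice with an intact Tex13a gene (wild type, WT) and of mice without it (KO). The 7 genes were chosen by name and not ranked by their values, but with earlier results of these data known. Of these 7, 6 could be tied to 1 row of the count matrix, as could 5476 of the 25065 gene symbols in all. Tssk5 could stand for 13 rows, so it is named here without values. The match rests on the assumption that only rows seen in fewer than 5 cells lack a symbol, without which Tssk6 and Tsks alone would keep 1 row.

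Both libraries came from adult males of strain C57BL/6 (C57BL/6N in the study's methods), 10 to 12 weeks old. WT mice were unmodified, and in KO mice CRISPR-Cas9 had removed all exons of Tex13a, an X-linked gene of spermatids. For each library, whole-testis cells from 3 testes of 3 mice were digested with collagenase I and pooled, and the cells were captured in microwells on beads with barcodes and unique molecular identifiers (UMIs). With 1 library for each genotype, a difference between KO and WT was not checked in replicates, carries no p-value, and genotype and library cannot be told apart. The WT library held 5170 cells with 45568532 UMIs, and the KO library 7238 cells with 67734689 UMIs. The median cell had 6508 UMIs in WT and 6714.5 in KO, and the libraries shared 0 cell barcodes. The authors' cell table places every cell in 1 of 13 clusters, which are Sg (spermatogonia), Sc1 and Sc2 (spermatocytes), Sd1 (mixed spermatocytes and early spermatids) and Sd2 to Sd10 (haploid spermatids). The symbol Tex13a could stand for 7 rows, so the targeted gene could not serve as a check of the genotype labels here.

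The fixed markers followed these names, with the summed level of the round spermatid markers Acrv1, Tex36, Spaca1 and Hemgn highest in Sd4, that of the transition proteins and protamines in Sd8 and that of Oaz3, Car2 and Gapdhs in Sd10, each in both libraries. The spermatogonia list had 2 of 4 markers with 1 row and was highest in Sc1 through Stra8, whereas Uchl1 was highest in Sg (511 CPM in WT). CPM stands for the UMIs of a gene scaled to a common total (counts per 1e6) in each library and cluster. Of 16 somatic and blood markers, 5 had 1 row, and their summed level lay between 3.88 and 447 CPM over the WT clusters and between 6.01 and 621 CPM over the KO clusters. The high end came from the globin genes Hba-a1 and Hbb-bs. These differed widely between the libraries, higher for example in WT in Sd7 and Sd9 and in KO in Sd2 and Sd8, with Hbb-bs at 3.13 CPM in WT and 384 in KO in Sd8, where 2948 globin UMIs lay in the KO cluster and 47 were left without 1 cell. The other 11 markers are not analysed here.

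TSSK proteins are serine/threonine kinases made almost only by male germ cells after meiosis. They act while the round spermatid condenses its nucleus, builds its tail and sheds its cytoplasm. TSSK1 and TSSK2 phosphorylate TSKS, a protein found near the centrioles and in the ring-shaped remnant of the chromatoid body, and males that lack both kinases are sterile. TSSK3 and TSSK6 are also needed for male fertility, TSSK6 in the exchange of histones for protamines. TSSK4 binds and phosphorylates the outer dense fibre protein ODF2 of the sperm tail. Because spermatids store many transcripts before they use them, the level of an RNA need not follow that of its protein.

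The genes lie apart in the genome, except for a single pair. By GENCODE vM21, on build GRCm38 (also called mm10), Tssk1 is a single exon on the plus strand at chr16:17894223-17897922, and Tssk2 is a single exon on the same strand at chr16:17898637-17900024, with 714 bases between them. Tssk3 lies at chr4:129489014-129491022 on the minus strand, Tssk4 at chr14:55650184-55652539, Tssk5 at chr15:76371952-76374938 on the minus strand, Tssk6 at chr8:69902184-69903518 and Tsks at chr7:44943204-44958035, the others on the plus strand. Exons of Tssk1 overlap those of Dgcr2 on the opposite strand, and exons of Tssk6 those of Ndufa13 and Yjefn3. The strand setting of the counting is not given in the sources used here, so reads of these partners may not be told apart. The longest identical run between the Tssk1 and Tssk2 transcripts is 113 bases, but within the last 500 bases of Tssk1 it is 9 bases, and no other pair of these genes shares more than 14 bases in a row.

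The start regions of the neighbours Tssk1 and Tssk2 are shown because the courses of these genes parted in late spermatids, and that of Tssk6 because it alone of the windows holds the half-site named below. RefSeq gives 6 of the 7 genes a window of 250 bases before to 50 bases after the start (build GRCm38.p6), and each is written here from 5′ to 3′ along its gene. In the first pair, capitals mark every run of at least 8 bases that the Tssk1 and Tssk2 windows share on the same strand; these runs were looked for after the windows had been read. In Tssk6, capitals mark TGACG, the half-site bound by CREM and CREB factors.
Tssk1, chr16:17893953-17894252, plus strand: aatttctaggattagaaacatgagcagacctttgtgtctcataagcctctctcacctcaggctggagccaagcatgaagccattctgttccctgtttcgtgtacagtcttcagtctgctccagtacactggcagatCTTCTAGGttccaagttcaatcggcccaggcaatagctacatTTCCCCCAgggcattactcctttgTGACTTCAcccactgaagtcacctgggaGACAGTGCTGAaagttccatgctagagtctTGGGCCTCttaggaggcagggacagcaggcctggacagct
Tssk2, chr16:17898387-17898686, plus strand: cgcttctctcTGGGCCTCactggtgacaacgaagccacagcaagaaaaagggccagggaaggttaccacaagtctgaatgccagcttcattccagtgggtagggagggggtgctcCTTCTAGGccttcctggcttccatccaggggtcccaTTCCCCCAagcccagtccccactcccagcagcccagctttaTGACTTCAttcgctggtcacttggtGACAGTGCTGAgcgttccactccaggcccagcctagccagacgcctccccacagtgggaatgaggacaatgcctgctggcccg
Tssk6, chr8:69901934-69902233, plus strand: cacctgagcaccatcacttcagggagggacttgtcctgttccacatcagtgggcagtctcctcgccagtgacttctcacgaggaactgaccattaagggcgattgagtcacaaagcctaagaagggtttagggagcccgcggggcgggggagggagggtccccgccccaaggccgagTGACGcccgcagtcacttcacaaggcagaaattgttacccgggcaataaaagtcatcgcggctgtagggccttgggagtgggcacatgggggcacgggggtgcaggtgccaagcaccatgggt

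The Tssk1 and Tssk2 windows share GACAGTGCTGA, which begins 20 bases before the start of Tssk1 and 33 bases before that of Tssk2. This run of 11 bases occurs, on either strand, in 0.0183% of 32851 mouse windows. Since the run was picked from the Tssk1 and Tssk2 windows themselves, and most runs of this length are rare, its rarity is not a test. They also share TGACTTCA, 48 bases before the start of Tssk1 and 58 bases before that of Tssk2, which is held by 1.52% of windows. No other window of these genes holds either run. The remaining shared runs, CTTCTAGG, TTCCCCCA and TGGGCCTC, are held by 1.15%, 2.09% and 1.70% of windows. Both strands of the 6 windows were searched for TGACG, for the full site TGACGTCA that contains it, for the CCAAT box and for the TATA box (TATAAA). The half-site was found only in Tssk6, 73 bases before the start, against 20.8% of all windows. CCAAT was found in Tssk3, 41 bases before the start on the minus strand, and in Tssk4, 113 bases before the start, against 37.4% of all windows. The full site, held by 1.79% of all windows, and the TATA box, held by 13.6%, were in none of the 6. A match of letters describes the window and is no evidence of binding.

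The 6 genes did not share a single course over the clusters, and their courses were nearly alike in the 2 libraries. Tssk4 was highest in Sd3, Tssk1 in Sd4, Tssk2 in Sd7, and Tssk3 and Tssk6 in Sd10, in WT and in KO. Tsks was highest in Sd6 in WT and in Sd7 in KO, and in each library these clusters did not differ beyond their intervals. Nor did Sd4, Sd5 and Sd6 for Tssk1 in either library, Sd3 and Sd4 for Tssk4 in WT, or Sd6 and Sd7 for Tssk2 in KO. All intervals are exact 95% intervals for counting error only, Poisson for levels and binomial for shares. Together the 6 genes made up 189 CPM in Sd1 and 7145 CPM in Sd10 of WT, and 180 and 7325 CPM in KO. Sd1 was not their starting level, since in Sg and Sc1 they made up 751 and 664 CPM in WT and 780 and 785 CPM in KO.

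**Figure D1:**
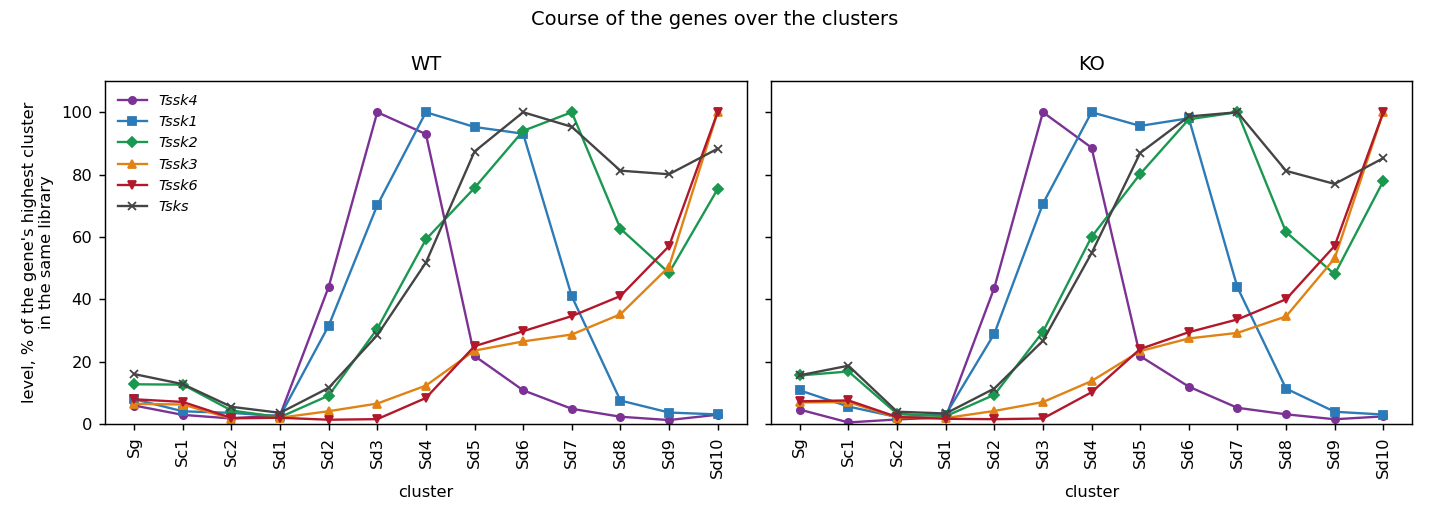
Level of each gene in each cluster as a percent of its highest cluster in the same library, WT on the left and KO on the right, from CPM of summed UMIs. Tssk4 and Tssk1 stand highest in Sd3 and Sd4, Tssk2 and Tsks in Sd6 or Sd7, and Tssk3 and Tssk6 in Sd10.

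A level in Sg and Sc1 sets the background, since these cells precede the haploid phase. Spermatid RNA was plentiful there, with Prm1, the protamine of elongating spermatids, at 21336 CPM in Sg of WT. Free RNA in the suspension gives such UMIs, and its part was not tested. A cluster is therefore said to hold a gene above background only where both its CPM and its share of cells with a UMI lay, with their intervals, above those of Sg and Sc1 in the same library. For these shares every cell was thinned to 3000 UMIs, which left out 0 cells.

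Of the kinases, Tssk4 was highest in the earliest cluster, Sd3. In WT it stood at 7.56 CPM in Sd1, 117 in Sd2, 266 in Sd3, 247 in Sd4, 58.0 in Sd5 and 28.8 in Sd6. In KO it stood at 5.48, 111, 253, 224, 55.1 and 30.4 CPM in the same clusters. It was above background from Sd2 to Sd5 in both libraries, and in WT Sd3 and Sd4 did not differ beyond their intervals.

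The level of Tssk4 was 35.1-fold (25.6 to 49.4) higher in Sd3 than in Sd1 in WT and 46.2-fold (36.2 to 59.8) higher in KO. It was 4.26-fold (3.60 to 5.06) lower in Sd5 than in Sd4 in WT and 4.07-fold (3.48 to 4.78) lower in KO. After thinning, 60.3% of WT cells and 52.8% of KO cells in Sd3 held a Tssk4 UMI, against 3.20% and 2.97% in Sg. Without thinning these shares were 83.5% and 81.8%. From Sd7 on, the intervals of Tssk4 in both libraries overlapped that of Sg or lay below it.

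Tssk1, of the pair whose kinases act on TSKS, was highest in Sd4, but like Tssk4 was above background from Sd2. In WT it stood at 17.0 CPM in Sd1, 211 in Sd2, 470 in Sd3, 669 in Sd4, 638 in Sd5, 623 in Sd6, 274 in Sd7, 50.6 in Sd8, 24.8 in Sd9 and 20.8 in Sd10. In KO it stood at 18.0, 172, 420, 594, 568, 583, 261, 67.6, 23.5 and 18.2 CPM. The levels of Sd4, Sd5 and Sd6 followed each other in the order without a gap between neighbouring intervals, and Sd2 to Sd7 were above background in both libraries.

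The end of this plateau was steep. From Sd6 to Sd8 the level of Tssk1 was 12.3-fold (10.6 to 14.4) lower in WT and 8.62-fold (7.65 to 9.73) lower in KO. The mean number of Tssk1 UMIs per cell went from 4.45 to 0.314 in WT and from 3.92 to 0.413 in KO. The median WT cell held 5671.5 UMIs in Sd6 and 5254 in Sd8. With totals this close, counts per cell do not separate the level from the makeup of the total, which was not tested. In Sd8 the WT level of 50.6 CPM was close to the 53.6 CPM of Sg. Thinned shares of cells with a UMI were 83.9% in Sd6, 48.1% in Sd7 and 9.22% in Sd8 of WT, and 79.3%, 44.5% and 12.9% in KO, against 10.5% and 11.9% in Sg.

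Tssk2, the neighbour of Tssk1 on chromosome 16, came up later and stayed. In WT it stood at 31.8 CPM in Sd1, 131 in Sd2, 438 in Sd3, 848 in Sd4, 1084 in Sd5, 1346 in Sd6, 1431 in Sd7, 897 in Sd8, 694 in Sd9 and 1078 in Sd10. In KO it stood at 32.0, 119, 375, 760, 1016, 1238, 1266, 780, 608 and 986 CPM. It was above background from Sd3 to Sd10 in both libraries.

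The course of Tssk2 dipped in Sd9. Its level was 2.06-fold (1.96 to 2.17) lower in Sd9 than in Sd7 in WT and 2.08-fold (1.97 to 2.20) lower in KO. In Sd10 it was again 1.55-fold (1.45 to 1.67) higher than in Sd9 in WT and 1.62-fold (1.51 to 1.74) higher in KO. UMIs per cell went the same way, from 4.32 in Sd9 to 7.34 in Sd10 of WT and from 3.57 to 6.25 in KO. The makeup of the total changed over this step, as given below for Tssk3. Counts per cell do not separate the level from that change, whose part was not tested. After thinning, 98.4% of WT cells in Sd7, 87.6% in Sd9 and 91.8% in Sd10 held a Tssk2 UMI, with 96.4%, 80.2% and 94.2% in KO.

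The balance of the neighbouring pair thus shifted through spermatid development. For every Tssk2 UMI there were 1.61 Tssk1 UMIs (1.41 to 1.85) in Sd2 of WT, 0.790 (0.752 to 0.829) in Sd4, 0.463 (0.438 to 0.490) in Sd6, 0.0564 (0.0486 to 0.0652) in Sd8 and 0.0192 (0.0125 to 0.0283) in Sd10. In KO the values were 1.45, 0.782, 0.471, 0.0867 and 0.0184. Tssk2 was not above background in Sd2, nor was Tssk1 in Sd8 and Sd10, so these ratios rest partly on background UMIs. From Sd3 to Sd7, where both genes were above background, the ratio went from 1.07 to 0.192 in WT and from 1.12 to 0.206 in KO. The ratio is read here for its change over the clusters and not as the molar ratio of the transcripts, whose lengths differ. After thinning, 81.4% of WT cells and 77.3% of KO cells in Sd6 held UMIs of both genes, and in Sd10 this was 4.89% and 6.83%, while 87.0% and 87.4% held Tssk2 alone of the pair.

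**Figure D2:**
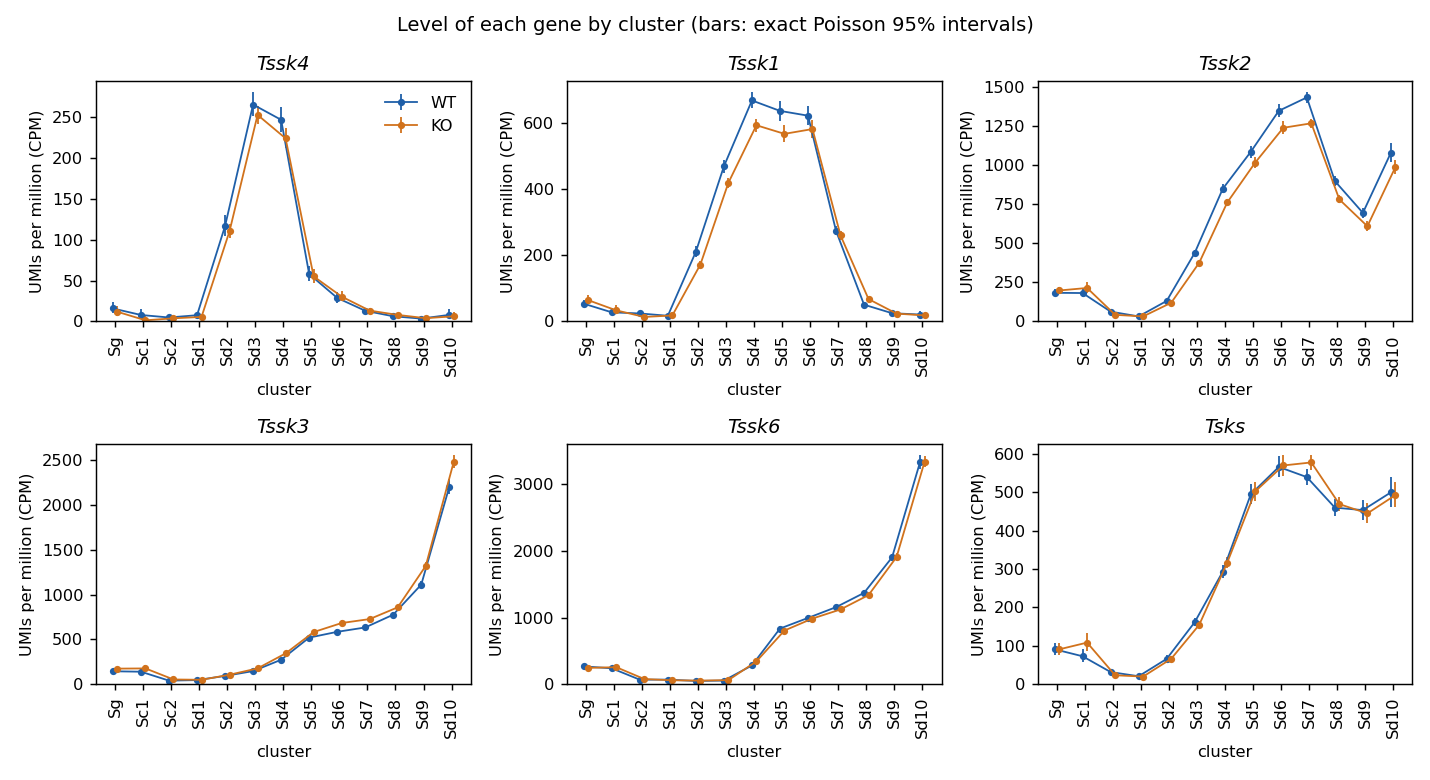
Level in CPM (y axis, linear) of each gene in the 13 clusters (x axis) for WT in blue and KO in orange, with exact Poisson 95% intervals as bars. Tssk1 lies at 623 CPM in Sd6 and 50.6 CPM in Sd8 of WT, and Tssk3 and Tssk6 reach 2201 and 3337 CPM in Sd10.

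Tssk3 went up in every step from Sd2 on. In WT it stood at 44.8 CPM in Sd1, 91.0 in Sd2, 145 in Sd3, 272 in Sd4, 519 in Sd5, 583 in Sd6, 632 in Sd7, 775 in Sd8, 1111 in Sd9 and 2201 in Sd10. In KO it stood at 47.9, 105, 175, 343, 581, 682, 726, 857, 1319 and 2482 CPM. It was above background from Sd4 to Sd10 in both libraries, and among these clusters the intervals overlapped only between Sd6 and Sd7.

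From Sd9 to Sd10 the level of Tssk3 was 1.98-fold (1.88 to 2.09) higher in WT and 1.88-fold (1.80 to 1.97) higher in KO. Over the same step UMIs per cell went from 6.91 to 15.0 in WT and from 7.74 to 15.7 in KO. This came as the total changed in makeup, since Prm1 went from 149173 CPM in Sd9 to 38041 in Sd10 of WT. The median WT cell held 4994 UMIs in Sd9 and 5271 in Sd10. Counts per cell therefore do not separate a higher level from the changed makeup, whose part was not tested. After thinning, 98.9% of WT and 99.3% of KO cells in Sd10 held a Tssk3 UMI.

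Tssk6 is the kinase tied to the histone exchange. In WT it stood at 46.8 CPM in Sd2, 52.8 in Sd3, 280 in Sd4, 834 in Sd5, 994 in Sd6, 1155 in Sd7, 1370 in Sd8, 1904 in Sd9 and 3337 in Sd10. In KO it stood at 52.3, 59.9, 341, 804, 984, 1121, 1337, 1908 and 3340 CPM. Its Sg level was 266 CPM in WT and 244 in KO, above those of Sc2 to Sd3, and Tssk6 was above this background from Sd5 in WT and from Sd4 in KO up to Sd10. By this rule it was the last of the 6 genes above background in WT, whereas in KO it came in Sd4 with Tssk3. In Sd4 of WT its interval of 264 to 296 CPM overlapped that of Sg, at 241 to 292 CPM. Its Sg level was the highest of the 6 genes, so the rule asked for a higher level of Tssk6 than of the others.

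The step from Sd3 to Sd5 was 15.8-fold (13.9 to 18.0) in WT and 13.4-fold (12.2 to 14.9) in KO. From Sd9 to Sd10 the level was 1.75-fold higher in both libraries (1.68 to 1.83 in WT and 1.68 to 1.82 in KO). As for Tssk3, the part of the changed makeup of the total in this step was not tested. After thinning, 14.3% of WT cells held a Tssk6 UMI in Sd3, 47.2% in Sd4, 91.3% in Sd5 and 100% in Sd10, with 14.8%, 56.3%, 91.5% and 100% in KO. Because the thinned share in Sg was 38.4% in WT and 33.2% in KO, the shares before Sd4 are background. In WT the share of Sd4 (42.1% to 52.4%) was not above that of Sg (31.9% to 45.1%) by the rule either.

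By CPM, Tsks, the substrate, stayed within a narrow range from Sd5 on. In WT it stood at 20.4 CPM in Sd1, 65.7 in Sd2, 161 in Sd3, 293 in Sd4, 495 in Sd5, 566 in Sd6, 539 in Sd7, 460 in Sd8, 453 in Sd9 and 500 in Sd10. In KO it stood at 19.6, 65.9, 154, 317, 502, 570, 578, 469, 445 and 493 CPM. It was above background from Sd3 to Sd10 in both libraries, as was Tssk2. In WT no neighbours in the order from Sd6 down to Sd9 had intervals that lay apart, and the levels of Sd5 to Sd10 ran from 453 to 566 CPM. The intervals of Sd6 and Sd9 themselves lay apart in WT, as did those of Sd6 and Sd5 in KO. Tsks UMIs per cell went from 4.69 in Sd5 to 2.82 in Sd9 of WT and from 4.61 to 2.61 in KO. The level in Sd10 was 1.13-fold (1.03 to 1.24) lower than in Sd6 in WT and 1.16-fold (1.07 to 1.26) lower in KO.

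**Figure D3:**
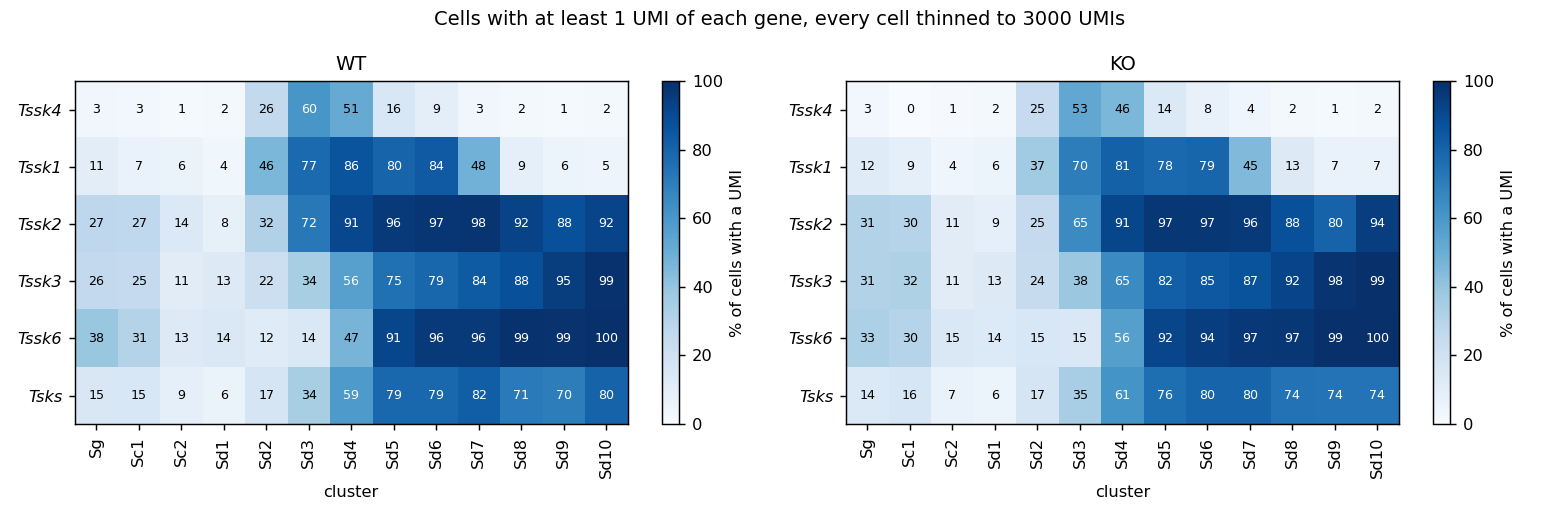
Percent of cells (color and printed number) with at least 1 UMI of each gene in each cluster, for WT and KO, after every cell was thinned to 3000 UMIs. Shares in Sg and Sc1 mark the background, such as 38.4% and 30.8% for Tssk6 in WT, and the clusters above it begin in Sd2 for Tssk4 and Tssk1 and in Sd5 (WT) or Sd4 (KO) for Tssk6.

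The same cells held several of these transcripts in the middle of the course. After thinning, a WT cell held UMIs of 0.478 of the 6 genes on average in Sd1, 1.55 in Sd2, 2.93 in Sd3, 3.90 in Sd4, 4.37 in Sd5, 4.44 in Sd6, 4.11 in Sd7, 3.62 in Sd8, 3.58 in Sd9 and 3.78 in Sd10. In KO the means were 0.491, 1.44, 2.76, 4.01, 4.38, 4.43, 4.08, 3.65, 3.60 and 3.77. In Sg and Sc1, which set the background, the means were 1.21 and 1.08 in WT and 1.24 and 1.18 in KO. The means of Sd1 lay below these, and those of Sd2 were close to them. The highest mean was thus in Sd6 in both libraries, where 48.5% of WT cells and 51.6% of KO cells held 5 or all 6 of the genes. In Sd9 this was 3.56% and 4.37%, with most cells at 3 or 4 genes. A gene without a UMI in a thinned cell may still be expressed in it.

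**Figure D4:**
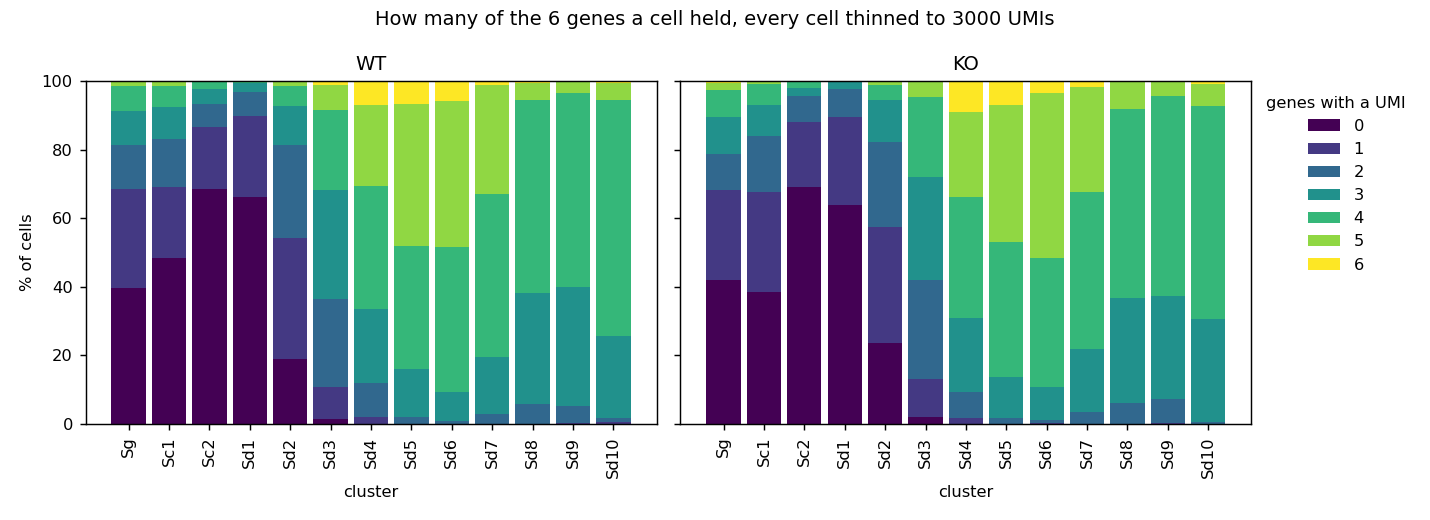
Percent of cells (y axis) by how many of the 6 genes had a UMI (color, 0 to 6) in each cluster, for WT and KO, every cell thinned to 3000 UMIs. Cells with 5 or 6 genes make up 48.5% of Sd6 in WT and 51.6% in KO, and cells with 0 genes 66.1% and 63.8% of Sd1. In Sg, cells with 0 genes make up 39.7% in WT and 42.1% in KO.

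The genes with the most similar courses were sought over the 13 WT clusters among 4298 genes with 1 row and at least 1000 UMIs. The measure was Pearson's r of log2(CPM + 1), given as a description, since the clusters share a library and its free RNA. For Tssk2 the first of these genes was Tsks (r = 0.989 in WT and 0.992 in KO, first in both), followed by Gm34263, Ttll10, 1700019D03Rik and 4933402J07Rik. For Tsks they were Gm34263, Gm16486, 1700003F12Rik, 1700019D03Rik and Tssk2, with r from 0.989 to 0.992.

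For Tssk1 they were Tes, Erich3, Spaca7, Akap3 and Kif2b (r from 0.973 to 0.984), of which Akap3 encodes an anchoring protein of the sperm tail. Tssk2 came in place 796 for Tssk1 (r = 0.529), although the genes are neighbours. For Tssk4 they were Apobec4, 4933411G06Rik, Tmem262, Pnmal2 and Krt88 (r from 0.976 to 0.994). For Tssk3 they were Gsg1, Gapdhs, Spz1, Ppm1a and Rnf138 (r from 0.994 to 0.997), and Gapdhs encodes the glycolytic enzyme of the sperm tail. For Tssk6 they were Cabs1, Spem1, 1700027A15Rik, Fam71f2 and Tppp2 (r from 0.997 to 0.999). Tssk3 and Tssk6 correlated with each other at r = 0.943 in WT and 0.953 in KO, and Tssk4 with Tssk6 at r = -0.40 and -0.28. The names depend on the measure, since by Spearman's rho 10 of these 30 genes stayed among the first 5, and 0 of the 5 named for Tssk3.

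Differences between KO and WT were small beside these courses. They are given as log2 ratios of KO to WT CPM, with 1 UMI added over both libraries in proportion to depth, where both libraries together held at least 10 UMIs. In Sd2 to Sd10, 0 of 54 values of the 6 genes lay past 1.5-fold in either direction. Over all genes with 1 row, the percent past 1.5-fold in either direction was 8.04 in Sd2, 6.09 in Sd3, 6.87 in Sd4, 11.9 in Sd5, 13.3 in Sd6, 13.6 in Sd7, 13.7 in Sd8, 21.1 in Sd9 and 25.4 in Sd10. The percent depended on the minimum of UMIs and was 9.88 in Sd10 with at least 100, while the 54 values rested on 19 to 14840 UMIs each, so the count of 0 is not set against it here.

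Tssk3 was higher in KO than in WT in all 13 clusters. The log2 ratio ran from 0.10 in Sd1 to 0.42 in Sc2, and its interval lay above 0 in 10 clusters. In Sd4 it was 0.33 (0.23 to 0.44), in Sd9 0.25 (0.18 to 0.32) and in Sd10 0.17 (0.10 to 0.24), with 2201 CPM in WT and 2482 in KO. Of all genes read in every cluster, 4.83% were above WT in all 13. The difference was thus also present in Sg, at 143 CPM in WT and 173 in KO, where Tssk3 is background.

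Tssk2 was lower in KO in all 9 clusters from Sd2 to Sd10, with log2 ratios between -0.22 in Sd3 and -0.09 in Sd5. The interval lay below 0 in 8 of these 9. In Sd7, where it was highest, the level was 1431 CPM in WT and 1266 in KO, a log2 ratio of -0.18 (-0.22 to -0.13). Of all genes read in these clusters, 4.31% were below WT in all of Sd2 to Sd10. The clusters before Sd2, where Tssk2 is background, did not go one way. Its ratios were 0.11 (-0.13 to 0.35) in Sg, 0.24 (-0.08 to 0.55) in Sc1 and 0.01 (-0.26 to 0.28) in Sd1. In Sc2 the ratio was -0.58 (-0.76 to -0.39), and -0.32 with cells thinned to 3000 UMIs.

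Tssk1 was lower in KO in 8 of these 9 clusters, and the exception was Sd8. The log2 ratio was -0.29 (-0.44 to -0.14) in Sd2, -0.16 (-0.24 to -0.08) in Sd3, -0.17 (-0.24 to -0.10) in Sd4, -0.17 (-0.26 to -0.07) in Sd5 and -0.10 (-0.19 to -0.0015) in Sd6. In Sd7, Sd9 and Sd10 its interval included 0. By the rule above, Tssk1 was not above background from Sd8 to Sd10 in either library. In Sd8 the log2 ratio was 0.42 (0.16 to 0.68), from 194 UMIs in WT and 324 in KO. In that cluster the round spermatid markers Acrv1, Tex36, Spaca1 and Hemgn, which are all past their peak there, had ratios of 0.28, 0.54, 0.30 and 0.14, each with an interval that included 0. The part of cells or RNA of earlier stages in the Sd8 value was not tested. Without the cells that held at least 10 globin UMIs, which were 0 in WT and 1 in KO in Sd8, the ratio of Tssk1 was again 0.42.

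For the other genes the libraries were close. Tssk6 had a log2 ratio of 0.29 (0.18 to 0.39) in Sd4, where its level was coming up, and between -0.05 and 0.00 in Sd5 to Sd10, with 3337 CPM in WT and 3340 in KO in Sd10. Tsks lay between -0.06 and 0.11 from Sd2 to Sd10. Tssk4 was at -0.08 (-0.28 to 0.12) in Sd2, -0.07 (-0.17 to 0.03) in Sd3 and -0.14 (-0.26 to -0.02) in Sd4, and from Sd8 on its counts were too few to read more than a level near 0.

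**Figure D5:**
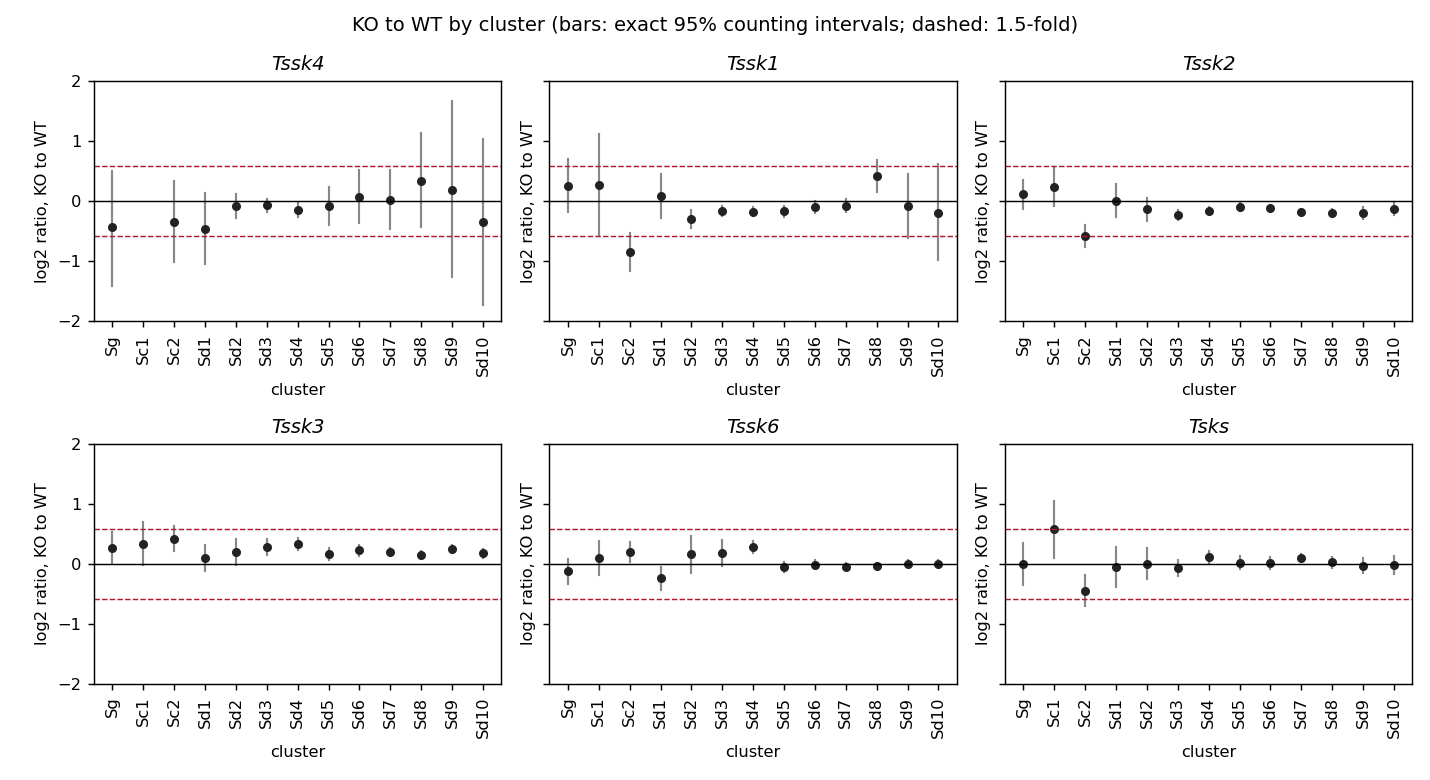
Log2 ratio of KO to WT CPM (y axis) of each gene in each cluster with exact 95% counting intervals; dashed lines mark 1.5-fold, and clusters with under 10 UMIs are left out. Tssk3 lies above 0 in all 13 clusters, Tssk2 below 0 in Sd2 to Sd10, and Tssk1 below -0.58 in Sc2 and above 0 in Sd8. Tssk1 was not above background in Sc2 or Sd8.

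In the spermatocyte cluster Sc2 the values were at background, and there the only value past 1.5-fold was found. Tssk1 stood at 24.1 CPM in WT and 13.4 in KO (log2 ratio -0.84, -1.15 to -0.53), where 10.4% of all genes passed this fold and 8.61% were lower in KO by as much. Tssk2 (-0.58, -0.76 to -0.39, and -0.32 with cells thinned to 3000 UMIs) and Tsks (-0.45, -0.71 to -0.19) were also lower, while Tssk3 (0.42, 0.21 to 0.63) and Tssk6 (0.20, 0.04 to 0.36) were higher. The round spermatid markers moved with Tssk1, since Acrv1, Tex36, Spaca1 and Hemgn had ratios from -0.85 to -0.63 in Sc2. The transition protein and protamine genes did not all go one way, with Tnp1 at -0.54, Tnp2 at -0.47, Prm1 at -0.26, Prm3 at -0.19 and Prm2 at 0.10. Of the markers of the latest spermatids, Car2 was at 0.64, Oaz3 at 0.10 and Gapdhs at 0.08. The part of free spermatid RNA in these values was not tested. In Sg, Sc1 and Sd1 no value passed 1.5-fold, against 12.6%, 15.8% and 8.18% of all genes, and Tssk4 in Sc1 had 9 UMIs and was not read.

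Of the fixed list of TSSK partners, 8 of 11 genes had 1 row. Tsacc encodes the co-chaperone that activates TSSK6, Hsp90aa1, Hsp90ab1 and Hspa8 encode chaperones that keep the kinases folded, Pdpk1 a kinase that acts on TSSK3, Spag16 a substrate of TSSK2 and Odf2 a substrate of TSSK4. Crem encodes the transcription factor that drives many spermatid genes. The 3 other genes of the list, Creb1, Ppp1cc and Spag6l, are not analysed here.

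The partners with the highest CPM in late cells were Odf2 and Tsacc; CPM are not scaled by transcript length, and the courses are what is compared. Odf2 went from 513 CPM in Sg to 730 in Sd3, 1563 in Sd5, 2750 in Sd8 and 4428 in Sd10 of WT, and was at 3921 CPM in Sd10 of KO. Tsacc was present before Tssk6, at 561 CPM in Sc2 and 759 in Sd1 of WT, and was highest in Sd7 (1444 CPM in WT and 1391 in KO). The values of the other partners are given outside the rule for named genes and were chosen after they were seen. Crem was highest in Sd3, the cluster of the Tssk4 peak (637 CPM in WT and 608 in KO), and was at 105 CPM in Sd5 of WT. Pdpk1 was highest in Sd6 in WT (381 CPM) and in Sd5 in KO (395 CPM), and was at 34.3 and 18.7 CPM in Sd10, where Tssk3 was highest.

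The chaperone transcripts were early. Hsp90aa1 was at 5797 CPM in Sc2, 1597 in Sd4 and 116 in Sd7 of WT, and Hsp90ab1 at 2894 CPM in Sg and 22.9 in Sd7. Hspa8 was at 762 CPM in Sg and between 2.53 and 19.7 CPM in Sd1 to Sd10 of WT. Spag16 was highest in Sd1, at 229 CPM in WT and 239 in KO.

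Between KO and WT no partner was past 1.5-fold from Sg to Sd3 and from Sd6 to Sd8, and none with at least 100 UMIs in the cluster in any cluster. Over all genes, the percent past this fold in those clusters ran from 6.09 in Sd3 to 15.8 in Sc1. With at least 100 UMIs it was 1.21 in Sd3 and 9.88 in Sd10. With 8 genes, these counts of 0 are not read as a result about the partners. In Sd10, 0 of 8 partners were higher and 3 lower past 1.5-fold, against 15.6% and 9.8% of all genes, and the median was -0.21 beside 0.04 over all genes. The 3 were Hspa8, Hsp90ab1 and Pdpk1, with 12, 42 and 76 UMIs in both libraries. Odf2 was at -0.18 (-0.23 to -0.12) and Tsacc at -0.15 (-0.24 to -0.05) in Sd10, whereas Hsp90aa1 was at 0.48 (0.22 to 0.74) and Crem at 0.39 (0.03 to 0.77).

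Of 38 other kinases, phosphatases and anchoring proteins of spermatids, 18 had 1 row. In Sd10 of WT those with the highest CPM were Akap4 (2419 CPM), the main anchor of protein kinase A in the fibrous sheath, Ppp1r11 (2060 CPM), an inhibitor of protein phosphatase 1, and Prkar2a (859 CPM), a regulatory subunit of protein kinase A. These 3 genes were highest in Sd10, as were Tssk3 and Tssk6. Akap3 was highest in Sd5 (890 CPM in WT) and was at 849 CPM in Sd6 and 86.6 CPM in Sd8, beside the end of Tssk1. Ppp3r2, the testis form of the regulatory subunit of calcineurin, was highest in Sd1 (1510 CPM in WT), and was at 981 CPM in Sd3 and 680 in Sd4.

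In Sd10, 16 of these genes were read, of which 4 were higher and 1 lower past 1.5-fold, against the same 15.6% and 9.8% of all genes, with a median of 0.19 beside 0.04 over all genes. Of the 4, Csnk2a2, Mak and Aurka had 53, 18 and 16 UMIs in both libraries. With at least 100 UMIs, Stk33 was past this fold in Sd10 (log2 ratio 0.63, 0.31 to 0.97), Plk4 in Sd9 (0.75, 0.24 to 1.29), Prkar2a in Sd3 (0.82, 0.39 to 1.28), Aurka in Sd4 (-0.62, -1.03 to -0.21) and Akap4 in Sc1 (0.60, 0.33 to 0.88). At this minimum 9.88% of all genes were past the fold in Sd10, 7.23% in Sd9, 1.21% in Sd3, 1.46% in Sd4 and 3.77% in Sc1. Akap4 was at 0.17 (0.11 to 0.24) in Sd10.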

How the data were processed

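Single-cell RNA sequencing was done on 1 WT and 1 Tex13a-KO library. The authors checked and trimmed reads with FastQC (0.11.7) and fastp (1), aligned them to mm10 with STAR (2.5.3a), counted them with featureCounts (1.6.2), and filtered and clustered the cells in Seurat (3.2.3). The deposited matrix holds raw UMI counts, not normalized. The deposited cell table gives library, cluster and percent of mitochondrial UMIs per cell; its corrected totals, a score made by the authors with sctransform, were not used. The limits of the cell filter are not given in the sources used here, and no doublet caller was run.

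The symbol list is shorter than the matrix. Rows were anchored by 30 mitochondrial symbols, whose UMIs gave the deposited percent in 12408 of 12408 cells (662 when line was read as row). A row could lack a symbol only if under 5 cells had it, which is an assumption; symbols with more than 1 possible row were left out, and the others hold 86.9% of UMIs. UMIs were summed per library and cluster (Python 3.11.15, numpy 2.4.6, scipy 1.17.1). Intervals are exact Poisson, Clopper-Pearson or conditional binomial 95% intervals and cover counting error only. The scripts were tested on simulated data.

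The genes and lists were chosen with earlier results of these data known. Named are all 7 genes, list genes past 1.5-fold with at least 100 UMIs, the 5 list genes with the highest level where the 6 genes were highest, the 5 genes most like each, and the markers. Promoter sequences are RefSeq's (GRCm38.p6), and gene models GENCODE vM21; protein sequences were not used here. Alternatives are given in the closing section.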

Additional observations from a re-analysis of the deposited data

Results flagged for a closer look

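Some genes had KO to WT ratios of opposite direction in different clusters, with both counting intervals away from 0; these differences between clusters were not tested. Tssk1 had a log2 ratio of 0.42 (0.16 to 0.68) in Sd8 and -0.84 (-1.15 to -0.53) in Sc2, with intervals above 0 in 1 cluster and below 0 in 6. Its level was not above background in Sd8 or in Sc2. Tssk6 had 0.29 (0.18 to 0.39) in Sd4 and -0.24 (-0.43 to -0.05) in Sd1, where its level is background. Tsks had 0.57 (0.10 to 1.05) in Sc1, from 155 UMIs, and -0.45 (-0.71 to -0.19) in Sc2, and its level in both is background.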

How the results depend on the processing

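If any row may lack a symbol, only 2 of the 7 genes, Tssk6 and Tsks, keep 1 row; Tssk1, Tssk2 and Tssk3 then have 2 possible rows each and Tssk4 13. No paired analysis was possible because there is 1 library per genotype. The count of 0 values past 1.5-fold in Sd2 to Sd10, of 13 clusters with Tssk3 above WT and of 9 with Tssk2 below WT held under mean single-cell CPM, totals without mitochondrial genes or without Prm1, Prm2, Tnp1 and Tnp2, thinned cells, the 5% of cells with most UMIs left out, cells with at least 10 globin UMIs left out, centring on the median gene and a prior of 10 UMIs. The log2 ratio of Tssk2 was -0.22 in Sd7 when centred and -0.32 in Sc2 when cells were thinned. The genes past 1.5-fold in Sd3 were 2.28% with at least 50 UMIs, 11.2% with no minimum, 1.85% past 2-fold and 1.21% with at least 100 UMIs, and in Sd10 14.0%, 33.3%, 9.44% and 9.88%. Of the 30 most similar genes, 10 stayed among the first 5 by Spearman correlation. Without the protamine and transition protein genes in the total, Tssk1 was highest in Sd6 in both libraries and Tsks in Sd7 in WT, and thinning gave Sd6 for Tssk1 in KO and Sd7 for Tsks in WT; by UMIs per cell Tsks was highest in Sd5 in both libraries, Tssk2 in Sd5 in KO and Tssk4 in Sd4 in WT. The UMIs per cell, the total without protamine and transition protein genes, the minimum of 100 UMIs and the globin limit were chosen after seeing the data.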
